A study of Bos taurus with 4 samples.

Results

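The noradrenaline and cyclic AMP (cAMP) signalling genes described here are SLC6A2, ADRB1, ADRB3, ADCY5, PRKAR2B, NPR1 and NPR3, which are 7 of the 21861 genes counted in nuclei from cattle fat. They were found by an exact match of the gene symbol in all 4 matrices, and all 7 were present. They had been picked with depot differences of these same data known, SLC6A2 among them because it had passed the threshold in sums over whole libraries. Their levels are therefore given as a description with no test.

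Single-nucleus RNA sequencing was done on intramuscular fat and on subcutaneous fat from the back of 2 animals of Bos taurus, with 1 library per depot and animal. The animals came from a commercial feedlot and received no treatment, and their diet, age and breed are unknown per the labels. The sample titles call the animals cows, whereas the series text calls them beef steers. The libraries are named intramuscular 1, intramuscular 2, subcutaneous 1 and subcutaneous 2, where the number is that of the animal, so each value from 2 libraries per depot rests on 2 animals and covers no spread within an animal.

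Noradrenaline is released by sympathetic nerve endings in fat and is cleared by the transporter that SLC6A2 encodes, which is best known from the nerve endings themselves. On the adipocyte it acts through beta-adrenergic receptors, whose stimulatory G protein turns on adenylyl cyclases such as ADCY5. The cAMP they make binds the regulatory subunits of protein kinase A, among them the PRKAR2B product, and frees the catalytic subunits that phosphorylate hormone-sensitive lipase (LIPE) and perilipin (PLIN1) to start lipolysis. Natriuretic peptides reach the same lipolytic proteins through cyclic GMP made by the receptor NPR1, while NPR3 removes the peptides from the surroundings of the cell.

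Kept nuclei numbered 1774 in intramuscular 1, 63 in intramuscular 2, 874 in subcutaneous 1 and 6126 in subcutaneous 2, with 2717458, 105481, 1138601 and 4006966 UMIs (counted RNA molecules) in the same order. The libraries stood apart in other ways. Genes of muscle fibres took 0.00213% and 0.00664% of UMIs in the intramuscular libraries, against 4.44% and 16.2% in the subcutaneous libraries, and muscle fibre-gated nuclei numbered 0 and 0 against 132 and 4757. Since muscle fibres surround intramuscular and not subcutaneous fat, these counts run against the depot labels; the labels were used as given, and every depot direction below depends on them. Mitochondrial genes took 0.0133% of UMIs in intramuscular 2 and between 1.24% and 1.65% in the other libraries. At most 2 cell barcodes were shared by any pair of libraries.

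Nuclei were assigned to a type by the share of their UMIs from marker genes, so a gated type is a range of marker share and not a proven cell type. Adipocyte-gated nuclei numbered 812 and 46 in the intramuscular libraries and 134 and 30 in the subcutaneous ones. Of these 1022 nuclei, 128 lay just inside the adipocyte limit, and 77 other nuclei lay just outside it. Genes of fibroblasts and progenitors made up a median of 0.775% and 0.205% of UMIs in intramuscular adipocyte-gated nuclei and 0.990% and 0.272% in subcutaneous ones, and muscle fibre genes a median of 0 and 0 against 0.482% and 7.0%. No member gene was a marker.

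SLC6A2, the noradrenaline transporter gene, was found mainly in the intramuscular libraries, and most of its molecules lay in adipocyte-gated nuclei, which also held most of the RNA of those libraries. Over all nuclei it had 57 UMIs in intramuscular 1 and 9 in intramuscular 2, against 1 in subcutaneous 1 and 2 in subcutaneous 2. Scaled to the UMIs of the same nuclei (CPM, UMIs per 1000000 UMIs), these levels were 21.0 and 85.3 in the intramuscular libraries and 0.878 and 0.499 in the subcutaneous ones. The depots did not overlap, and the ratio of intramuscular over subcutaneous was 23.9 in animal 1 (95% interval 4.12 to 959.7) and 171 in animal 2 (35.4 to 1626). Intervals and lower limits given here cover counting error only.

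Within adipocyte-gated nuclei SLC6A2 reached 23.6 CPM in intramuscular 1 (95% Poisson interval 16.7 to 32.4) and 85.9 in intramuscular 2 (37.1 to 169). It reached 4.10 CPM in subcutaneous 1, from 1 UMI, and no UMI was seen in subcutaneous 2, where 3 UMIs would already have been 74.4 CPM. The means were 54.8 ± 44.0 in intramuscular and 2.05 ± 2.90 CPM in subcutaneous nuclei of this gate (SD, n = 2 libraries each). The intramuscular libraries were the higher ones, but the ratio in animal 1 was 5.76 with an interval of 0.974 to 234, so at this depth a depot difference within adipocyte-gated nuclei was not separated from counting error. The interval of subcutaneous 2 also reached above both intramuscular levels.

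By nucleus type, 47 of the 69 SLC6A2 UMIs (68.1%) lay in adipocyte-gated nuclei, which held 24.9% of all UMIs. That contrast mixes the depots, since nearly all SLC6A2 lay in the intramuscular libraries: there 46 of 66 SLC6A2 UMIs (69.7%) were in adipocyte-gated nuclei, which held 60.3% of the UMIs of those libraries. Another 17 lay in ungated nuclei, 4 in fibroblast/progenitor-gated and 1 in blood endothelial-gated nuclei. None lay in muscle fibre-gated nuclei, which held 40.7% of all UMIs but came from the subcutaneous libraries alone, where SLC6A2 had 3 UMIs in all. In intramuscular 1, which holds most of these molecules, 48 of 57 UMIs were in adipocyte-like clusters, as were 9 of 9 in intramuscular 2. Those clusters held 774 of the 1774 nuclei of intramuscular 1 and 54 of the 63 of intramuscular 2. The count of 9 of 9 therefore says little about where SLC6A2 lay in intramuscular 2. For intramuscular 1, a share of UMIs is not on the same scale as a share of nuclei. Its adipocyte-gated nuclei were deeper (median 1643 UMIs) than its nuclei as a whole (1100.5). By level, SLC6A2 was at 27.7 CPM in adipocyte-like cluster 0 of intramuscular 1 (20.4 to 36.7). Progenitor-like cluster 6 of that library held 8 UMIs at 17.6 CPM (7.59 to 34.6), not separated from cluster 0. Ungated nuclei of intramuscular 1 held SLC6A2 at 35.1 CPM, from 14 UMIs, and their adipocyte over ungated ratio of 0.674 (0.357 to 1.35) lay below the 2.57 of PLIN1 (2.32 to 2.85).

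SLC6A2 was spread over many nuclei of intramuscular 1. There, 50 nuclei carried SLC6A2, with no more than 4 UMIs in any of them, and 32 of these were adipocyte-gated. That is 3.94% of adipocyte-gated nuclei (exact 95% interval 2.71 to 5.52), at a median depth of 1643 UMIs, against 0.474% of blood endothelial-gated nuclei (0.0120 to 2.61), at a median depth of 919 UMIs. Thinned to 500 UMIs per nucleus, which left out no nucleus of either gate, the shares were 1.26% and 0.0858%. The endothelial value rests on a single UMI.

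**Figure D1:**
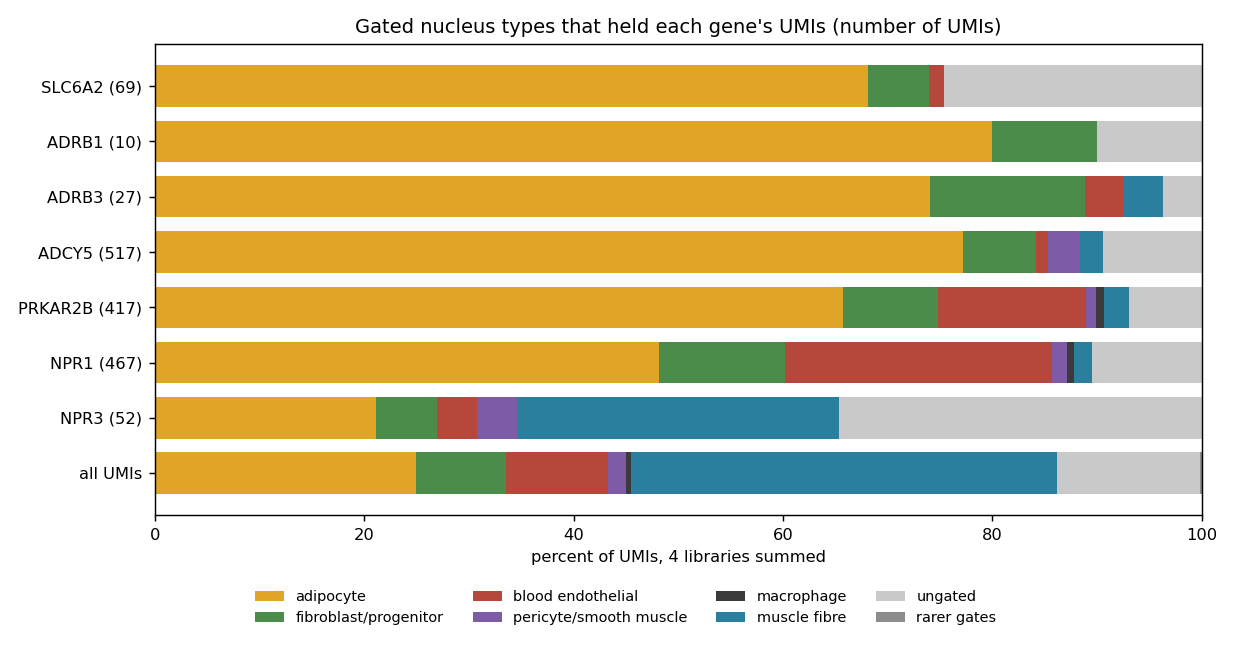
Percent of each gene's UMIs by gated nucleus type, 4 libraries summed, with the number of UMIs after the gene name, and the same for all UMIs in the lowest bar. Adipocyte-gated nuclei held 24.9% of all UMIs and 68.1% of those of SLC6A2, 80.0% of ADRB1, 74.1% of ADRB3, 77.2% of ADCY5, 65.7% of PRKAR2B, 48.2% of NPR1 and 21.2% of NPR3; the 4 libraries differ in their types, so the shares within depots given in the text are the ones to compare.

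The same shares within depots were taken for the other members. In the intramuscular libraries, where it held 60.3% of UMIs, it held 86.6% of ADCY5, 80.0% of ADRB3 and 72.6% of PRKAR2B UMIs, and 61.0% of those of NPR1. In the subcutaneous libraries, where it held 5.52% of UMIs, it held 43.4% of ADCY5, 70.6% of ADRB3, 41.3% of PRKAR2B and 22.9% of NPR1 UMIs. For ADRB1 the shares were 85.7%, from 7 UMIs, in the intramuscular and 66.7%, from 3 UMIs, in the subcutaneous libraries. For NPR3 the shares were 75.0%, from 12 UMIs, in the intramuscular and 5.0%, from 40 UMIs, in the subcutaneous libraries.

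Nuclei that could be read as nerve cells were not found. No nucleus passed the gate for sympathetic neurons. Of the genes listed for them, PHOX2A, a regulator of noradrenergic neurons, DBH, the enzyme that makes noradrenaline, and the general neuronal genes ELAVL4 and PRPH had 0 UMIs in every library. HAND2 had 1 and 0 UMIs in the intramuscular libraries and 0 in both subcutaneous ones, SNAP25 had 2 and 0 against 4 and 0, and STMN2 and DDC each had 0 and 0 against 1 and 11. TH, the first enzyme of noradrenaline synthesis, had 1 and 0 UMIs in the intramuscular libraries and 29 and 5 in the subcutaneous ones. SLC18A2, which loads noradrenaline into vesicles, had 89 and 0 UMIs in the intramuscular and 15 and 64 in the subcutaneous libraries; it was spread over several gates. In intramuscular 1 it reached 40.4 CPM in adipocyte-gated and 37.3 in progenitor-gated nuclei. CHRNA3, a further gene of that list, had 78 and 0 UMIs in the intramuscular and 16 and 13 in the subcutaneous libraries. Nerve endings hold no nuclei, so axons in the tissue would not be counted here.

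PLIN1 and LIPE, adipocyte genes that were not used in the gate, were also counted outside it and give a comparison. In intramuscular 1 the level in adipocyte-gated over blood endothelial-gated nuclei was 7.48 for SLC6A2 (1.26 to 303), 7.48 for PLIN1 (6.20 to 9.11) and 5.59 for LIPE (4.58 to 6.89). Over progenitor-gated nuclei it was 2.22 for SLC6A2 (0.799 to 8.56), 3.01 for PLIN1 (2.69 to 3.38) and 2.67 for LIPE (2.35 to 3.06). The SLC6A2 ratios rest on 1 endothelial and 4 progenitor UMIs, and their intervals held the values of both adipocyte genes. Of 651 progenitor-gated nuclei, 83 lay in adipocyte-like clusters. Whether UMIs outside the adipocyte gate were made in those nuclei was not tested. A transfer RNA gene, TRNAG-CCC, overlaps SLC6A2 in the gene table at hand.

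**Figure D2:**
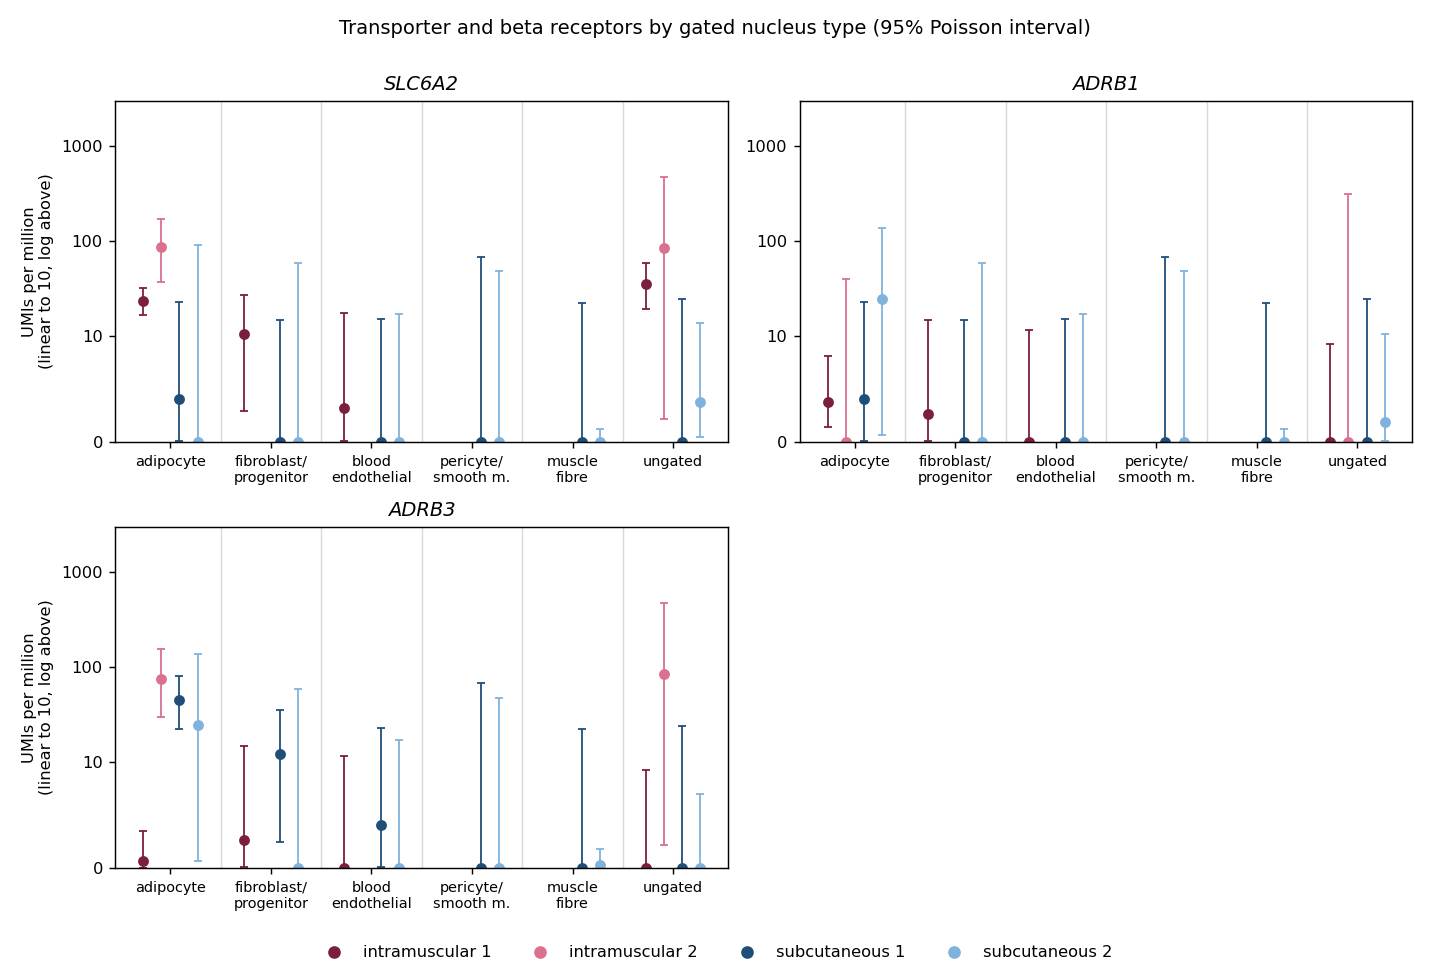
CPM for SLC6A2, ADRB1 and ADRB3 in each gated nucleus type, with 1 point per library that had at least 10 such nuclei and bars for the 95% Poisson interval; the axis is linear to 10 and logarithmic above. SLC6A2 is highest in adipocyte-gated and ungated intramuscular nuclei, and most ADRB3 points above 10 lie in the adipocyte gate, at 75.2 CPM in intramuscular 2, against 45.1 and 24.8 CPM in the subcutaneous libraries.

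Both beta receptor members were sparse, and most of their UMIs lay in adipocyte-gated nuclei. ADRB1, the beta receptor best known from the heart, was near the limit of detection with 7 and 0 UMIs in the intramuscular libraries and 1 and 2 in the subcutaneous ones. Of these 10 UMIs, 8 were in adipocyte-gated nuclei, where the level was 3.73 and 0 CPM in the intramuscular libraries and 4.10 and 24.8 in the subcutaneous ones. The last value comes from 1 UMI in 30 nuclei, and the depots overlapped. No ADRB1 UMI was seen in blood endothelial-, mural- or muscle fibre-gated nuclei.

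ADRB3, the beta receptor that marks adipocytes in rodents, had 2 and 8 UMIs in the intramuscular libraries and 15 and 2 in the subcutaneous libraries. Of these 27 UMIs, 20 were in adipocyte-gated nuclei. There the level was 0.622 CPM in intramuscular 1 (0.0157 to 3.47) and 75.2 in intramuscular 2 (30.2 to 155), against 45.1 in subcutaneous 1 (22.5 to 80.7) and 24.8 in subcutaneous 2 (0.628 to 138). Intramuscular 1 stood alone with 1 UMI in 812 nuclei, and the other 3 libraries were not separated from each other by counting error. In subcutaneous 1, 9 of 134 adipocyte-gated nuclei carried ADRB3 (6.72%, 3.12 to 12.4), at a median depth of 1532.5 UMIs, against 1 of 144 blood endothelial-gated nuclei (0.694%), at a median depth of 957 UMIs. Thinned to 500 UMIs, the adipocyte-gated share there was 2.07% over 126 nuclei, against 0.0382% in intramuscular 1.

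The ADRB3 ratios of the 2 animals lay on opposite sides of 1, but only that of animal 1 was separated from counting error. In adipocyte-gated nuclei the ratio of intramuscular over subcutaneous ADRB3 was 0.0138 in animal 1 (0.000320 to 0.0949) and 3.03 in animal 2 (0.390 to 137). Between the intramuscular libraries alone the level in intramuscular 2 was 121 times that in intramuscular 1 (15.5 to 5446). The depot means of 37.9 ± 52.7 and 34.9 ± 14.4 CPM in intramuscular and subcutaneous nuclei (SD, n = 2 libraries each) hide this, since the intramuscular SD exceeds its mean.

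ADRB3 also followed the clusters of adipocyte-like nuclei, which were drawn without the gate. Cluster 0 held 767 nuclei of intramuscular 1 and 9 of subcutaneous 1, and cluster 4 held 54 of intramuscular 2, 143 of subcutaneous 1, 12 of subcutaneous 2 and 7 of intramuscular 1. In cluster 0 the ADRB3 level in intramuscular 1 was 1.15 CPM (0.140 to 4.17). In cluster 4 it was 78.7 in intramuscular 2 (34.0 to 155), against 44.0 in subcutaneous 1 (22.8 to 76.9) and 38.9 in subcutaneous 2 (0.986 to 217). SLC6A2 did not follow the clusters in this way, with 27.7 CPM in cluster 0 of intramuscular 1 and, in cluster 4, 88.6 in intramuscular 2 against 3.67 in subcutaneous 1 and 0 in subcutaneous 2. Since cluster 0 is nearly all of 1 library, cluster and library cannot be told apart.

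**Figure D3:**
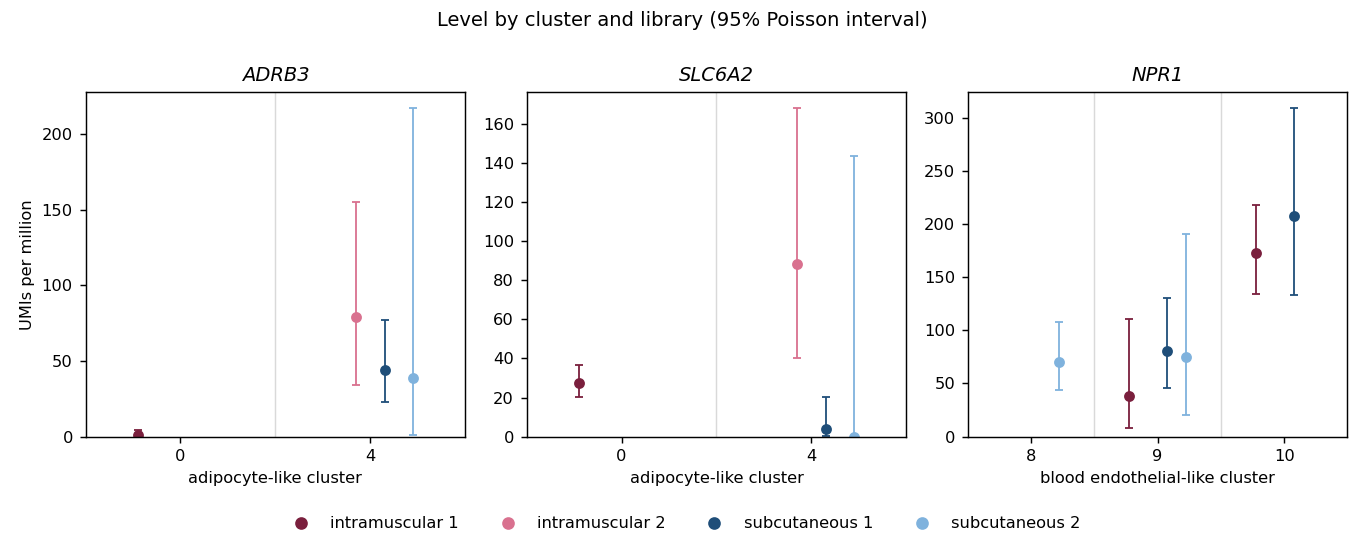
CPM by cluster for ADRB3, SLC6A2 and NPR1, with 1 point per library that had at least 10 nuclei in the cluster and bars for the 95% Poisson interval. ADRB3 is near 0 in adipocyte-like cluster 0 (intramuscular 1) and between 38.9 and 78.7 in cluster 4, and NPR1 is higher in endothelial-like cluster 10 than in cluster 9 in both libraries present in both. Of the 288 nuclei of cluster 9, 117 were endothelial-gated.

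By likeness of pattern over 15 sums of a library and gated type, the genes closest to ADRB3 were IL17D (Pearson r = 0.917), CEP290 (0.897), HIF3A (0.891), PCNT (0.880) and CTCF (0.880). Of these, IL17D and HIF3A were also among the leading genes of cluster 4. Adipocyte-gated HIF3A was at 21.1 and 1224 CPM in the intramuscular and 229.6 and 1066 in the subcutaneous libraries, low in intramuscular 1 as ADRB3 was. The genes closest to SLC6A2 were ITPKA (0.865), IRS2 (0.864), TBX3 (0.858), CC2D1A (0.857) and DHX34 (0.855). Adipocyte-gated TBX3 was at 588 and 1599.8 CPM in the intramuscular and 131 and 198 in the subcutaneous libraries. The 15 points share libraries, depth and free RNA, so these values describe likeness only.

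ADCY5, an adenylyl cyclase, lay mainly in adipocyte-gated nuclei, where 399 of its 517 UMIs (77.2%) were found. Over all nuclei it had 284 and 120 UMIs in the intramuscular libraries and 77 and 36 in the subcutaneous ones. In adipocyte-gated nuclei the level was 147 CPM in intramuscular 1 (129 to 167) and 1213 in intramuscular 2 (999.9 to 1459), against 185 in subcutaneous 1 (135 to 247) and 99.2 in subcutaneous 2 (27.0 to 254). Intramuscular 2 was the only library that stood apart, and intramuscular 1 lay between the subcutaneous libraries.

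The ratio of intramuscular over subcutaneous ADCY5 in adipocyte-gated nuclei was 0.799 in animal 1 (0.579 to 1.12) and 12.2 in animal 2 (4.65 to 45.7). The excess in intramuscular 2 was widespread as well as uneven. ADCY5 was seen in 29 of 46 adipocyte-gated nuclei there (63.0%, exact interval 47.5 to 76.8), against 173 of 812 in intramuscular 1 (21.3%, 18.5 to 24.3), at median depths of 1064.5 and 1643 UMIs. At the same time 5 nuclei held 63 of the 120 UMIs of intramuscular 2, and a single nucleus held 30. Thinned to 500 UMIs, the shares were 35.5% in intramuscular 2, where 42 nuclei were deep enough, and 6.87% in intramuscular 1.

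Outside adipocytes, ADCY5 was at 147 CPM in pericyte/smooth muscle-gated nuclei of subcutaneous 1 (63.4 to 289) and at 104 in those of subcutaneous 2 (44.9 to 205). These levels were not separated from those of adipocyte-gated nuclei in the same libraries, with adipocyte over mural ratios of 1.26 (0.586 to 3.09) and 0.954 (0.210 to 3.56). Endothelial-gated nuclei were low, at 12.6 CPM in intramuscular 1 and at 4.09 and 4.64 in the subcutaneous libraries. In progenitor-gated nuclei the adipocyte over progenitor ratio of 2.77 in intramuscular 1 (1.75 to 4.61) lay near the 3.01 of PLIN1 and the 2.67 of LIPE, and whether these UMIs were made in progenitor nuclei was not tested.

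**Figure D4:**
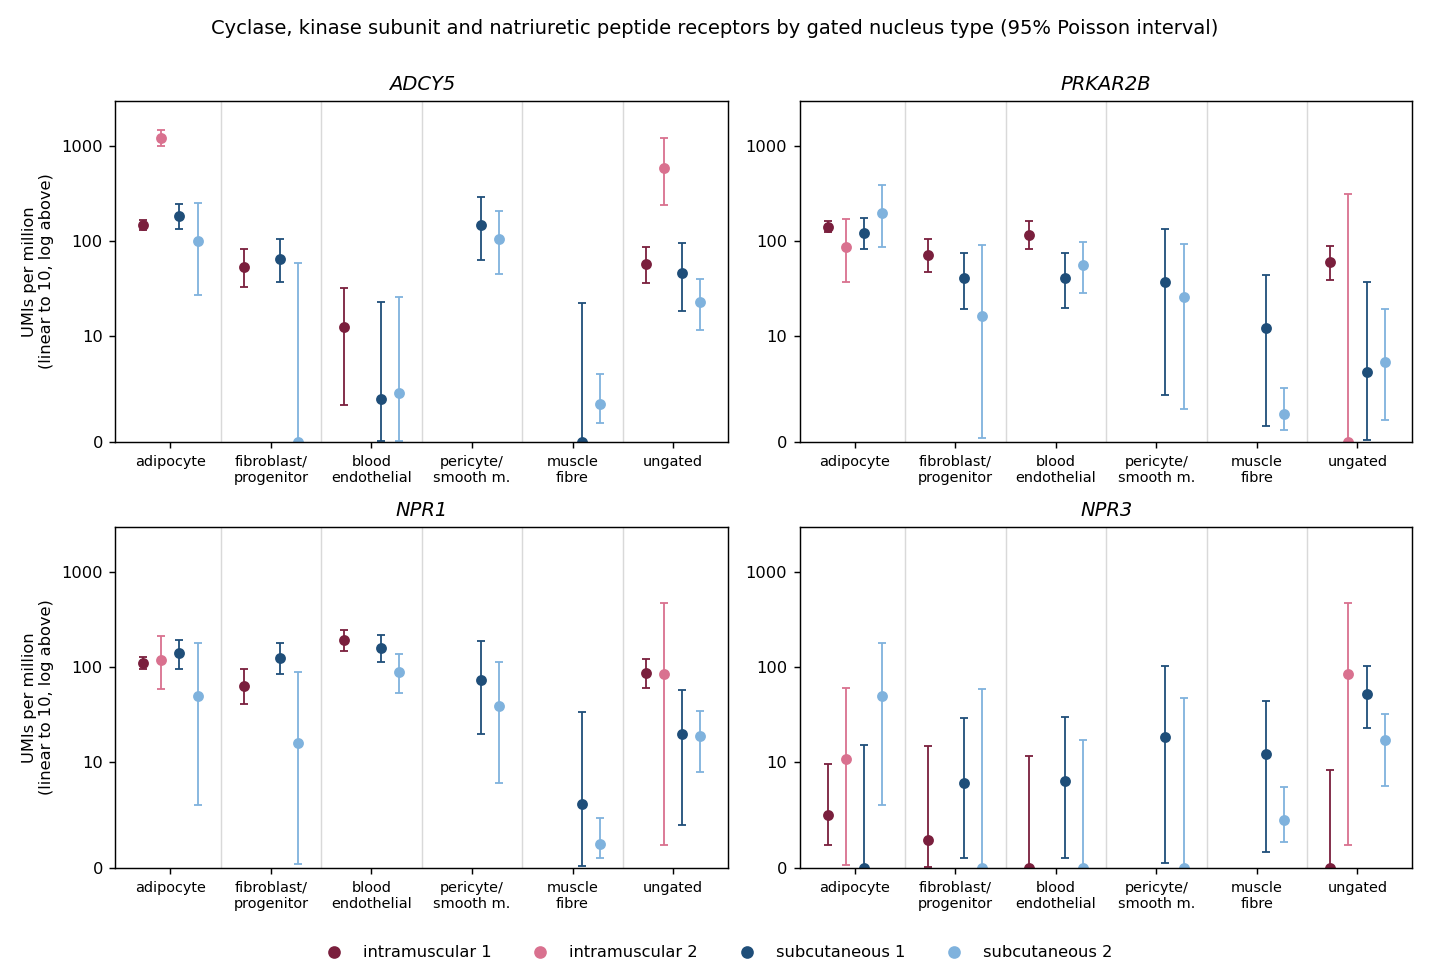
CPM for ADCY5, PRKAR2B, NPR1 and NPR3 in each gated nucleus type, with 1 point per library that had at least 10 such nuclei and bars for the 95% Poisson interval; the axis is linear to 10 and logarithmic above. ADCY5 in adipocyte-gated nuclei of intramuscular 2 stands at 1213, above the other 3 libraries, and NPR1 is highest in endothelial-gated nuclei.

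PRKAR2B, the regulatory kinase subunit abundant in adipose tissue, was carried by adipocyte- and endothelial-gated nuclei. It had 317 and 8 UMIs in the intramuscular libraries and 57 and 35 in the subcutaneous ones. In adipocyte-gated nuclei the level was 142 and 85.9 CPM in the intramuscular libraries, against 123 and 198 in the subcutaneous ones, and the depots overlapped. The ratio of intramuscular over subcutaneous there was 1.15 in animal 1 (0.786 to 1.75) and 0.433 in animal 2 (0.142 to 1.32).

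Endothelial-gated nuclei held PRKAR2B at 117 CPM in intramuscular 1, against 40.9 and 55.7 in the subcutaneous libraries. The adipocyte over endothelial ratio was 1.21 in intramuscular 1 (0.854 to 1.77), against 3.01 in subcutaneous 1 (1.43 to 6.89) and 3.56 in subcutaneous 2 (1.26 to 9.48). In the libraries of animal 1 it was below that of PLIN1, which was 7.48 and 42.5 there. No PLIN1 UMI was seen in endothelial-gated nuclei of subcutaneous 2, so PLIN1 gave no ratio to compare in that library. The gene table lists LOC132345086 as overlapping PRKAR2B.

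NPR1, the guanylyl cyclase receptor for the atrial and brain natriuretic peptides, was highest in blood endothelial-gated nuclei in all 3 libraries that had at least 10 of them. It had 298 and 12 UMIs in the intramuscular libraries and 115 and 42 in the subcutaneous ones. The endothelial level was 193 CPM in intramuscular 1 (148 to 248), against 160 in subcutaneous 1 (114 to 218) and 88.1 in subcutaneous 2 (53.1 to 138). In adipocyte-gated nuclei it was 111 and 118 in the intramuscular libraries, against 139 and 49.6 in the subcutaneous ones. In progenitor-gated nuclei it was 63.9 in intramuscular 1, with a mean of 70.7 ± 77.2 over the subcutaneous libraries (SD, n = 2). In progenitor-like cluster 2 it was 119 in subcutaneous 1 (77.6 to 174) and 9.12 in subcutaneous 2 (1.10 to 33.0). The interval in subcutaneous 1 held both the adipocyte-gated and the endothelial-gated level of that library.

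The adipocyte over endothelial ratio of NPR1 was 0.574 in intramuscular 1 (0.427 to 0.781), so there the excess in endothelial-gated nuclei was larger than counting error, whereas it was 0.873 in subcutaneous 1 (0.535 to 1.42) and 0.563 in subcutaneous 2 (0.0635 to 2.33). Between depots the adipocyte-gated NPR1 level differed by less than counting error in both animals, with ratios of 0.794 (0.548 to 1.18) and 2.38 (0.520 to 22.1). NPR1 was also uneven among endothelial-like clusters. In cluster 10, led by genes that include GPIHBP1, CD300LG and BTNL9, it was at 172 CPM in intramuscular 1 and 208 in subcutaneous 1, and in cluster 9, led by genes that include IGFBP3 and GJA5, at 38.0 and 80.6. Cluster 8 was at 70.5 CPM in subcutaneous 2. By gate, cluster 9 was mixed: 117 of its 288 nuclei were endothelial-gated and 78 adipocyte-gated, against 239 of 318 endothelial-gated in cluster 10. Whether NPR1 differs between endothelial nuclei of these clusters was not tested.

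NPR3, the clearance receptor, was sparse and had no clear home among the gates. It had 10 and 2 UMIs in the intramuscular libraries and 15 and 25 in the subcutaneous ones. Of these 52 UMIs, 11 were in adipocyte-gated, 16 in muscle fibre-gated and 18 in ungated nuclei. Muscle fibre-like cluster 1, with 607 of its 1130 nuclei ungated, held 8 NPR3 UMIs in subcutaneous 1 (74.7 CPM, 32.2 to 147). It held 13 in subcutaneous 2 (21.2 CPM, 11.3 to 36.2), where muscle fibre-like clusters 3, 7 and 11 were at 4.16, 4.04 and 1.02 CPM. In subcutaneous 1, cluster 3 was at 39.6 CPM (8.18 to 116), not separated from cluster 1. The adipocyte-gated level was 4.98 and 10.7 CPM in the intramuscular libraries, against 0 and 49.6 in the subcutaneous ones, and the depots overlapped. Among the peptides that these receptors bind, NPPA and NPPB had 0 UMIs in all libraries, and NPPC had 2 and 0 in the intramuscular and 1 and 8 in the subcutaneous libraries.

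Member and library were paired where at least 2 gated types had 10 or more nuclei and together at least 3 UMIs of the gene. Of these 15 pairs, the adipocyte-gated level was the highest in 10. None of the pairs came from intramuscular 2, where the adipocyte gate was the only gated type with 10 or more nuclei. Ungated nuclei were left out of this ranking, and the NPR3 pair in subcutaneous 2 rests on 2 adipocyte-gated UMIs. The same share over all genes was not computed, so the count is a description and nothing is read from it. The exceptions were NPR1 in 3 libraries, ADCY5 in subcutaneous 2 and NPR3 in subcutaneous 1. Without intramuscular 1, 5 of 9 pairs had the adipocyte gate on top, and with every marker limit raised by a factor of 2 4 of 9 did.

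**Figure D5:**
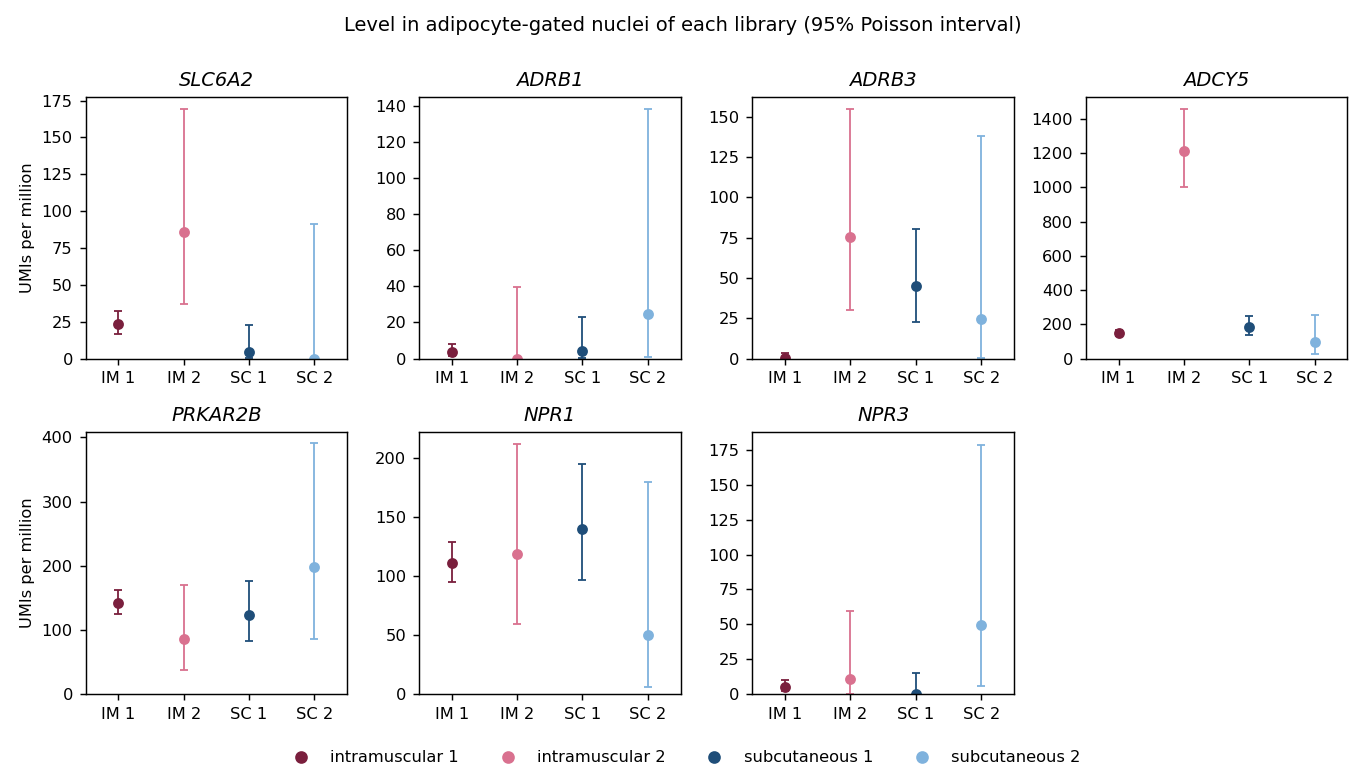
CPM of each member in adipocyte-gated nuclei of the intramuscular (IM) and subcutaneous (SC) libraries of animals 1 and 2, with bars for the 95% Poisson interval. The 2 intramuscular points lie above both subcutaneous ones only for SLC6A2, and ADRB3 is near 0 only in intramuscular 1. SLC6A2 was chosen on a depot difference of these data and the share of all genes with such an order was not computed, so nothing is read from this order.

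Sums over libraries were then set against each other for all genes with edgeR's quasi-likelihood test and Benjamini-Hochberg adjustment. Over whole libraries 170 of 11143 genes passed the threshold of 0.05 (1.53%), of which 6 were higher (0.0538%) and 164 lower (1.47%) in intramuscular fat. Without intramuscular 1, 24 genes were higher and 0 lower. Of the 7 members, 6 passed the count filter and 1, SLC6A2, was past the threshold; since the members were chosen on this comparison, nothing is read from that count. Their log2 fold changes of intramuscular over subcutaneous were 5.10 for SLC6A2 (SE 1.11), 3.55 for ADCY5 (1.28), 1.44 for ADRB3 (1.70), 1.40 for PRKAR2B (0.80), 0.72 for NPR1 (0.85) and -1.31 for NPR3 (1.04). In bulk sums, fewer cells of a type and less RNA per cell cannot be told apart. Without muscle fibre-gated nuclei, a choice made after seeing the data, 0 genes passed the edgeR test, with 853 at an unadjusted p under 0.05, and DESeq2 was not run on those sums. SLC6A2 was also not past the threshold without subcutaneous 1 or without subcutaneous 2, and it had too few counts to be tested without intramuscular 1.

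Within adipocyte-gated nuclei 41 of 4083 genes passed (1.0%), all of them lower in intramuscular fat. That one direction was lost with an intramuscular library left out: 106 genes were higher and 253 lower without intramuscular 1, and 75 higher and 95 lower without intramuscular 2. Only 3 members had enough counts to be tested, with log2 fold changes of 2.22 for ADCY5 (SE 1.03), 0.21 for NPR1 (0.70) and -0.28 for PRKAR2B (0.69), and none was past the threshold. Within progenitor-gated nuclei, where intramuscular 1 alone was set against both subcutaneous libraries, 104 of 6455 genes passed (1.61%, with 0.294% higher and 1.32% lower in intramuscular fat) and again 0 of 3 members, with 0.35 for ADCY5 (0.93), -0.35 for NPR1 (0.71) and 1.19 for PRKAR2B (0.86).

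The wider pathway was read from 9 lists with 105 genes, of which 102 were among the counted genes. Over whole libraries 75 were tested and 4 passed, against 1.53% of all genes, with a median log2 fold change of 0.04 against -0.16 over all genes. These were SLC6A2, from which nothing is read since it was chosen on this comparison, and the kinase anchor gene AKAP4, higher in intramuscular fat, and the cyclase gene ADCY2 and the kinase inhibitor gene PKIA, lower there. None of the 3 tested adrenergic receptors, 11 G protein and desensitisation genes, 13 phosphodiesterases, 6 natriuretic peptide and cGMP genes or 12 cAMP effectors passed. Within adipocyte-gated nuclei 29 list genes were tested and 0 passed with edgeR or with DESeq2, while NR4A1 and PRKAR1A were at an unadjusted edgeR p under 0.05; the list median was 0.21, against 0.07 over all genes. Within progenitor-gated nuclei 46 were tested and AKAP4 alone passed, a share near the 1.61% of all genes, with a list median of -0.20 against -0.01.

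ADCY2, a cyclase, had 4 and 0 UMIs in the intramuscular libraries and 46 and 473 in the subcutaneous ones, a log2 fold change of -6.83 (SE 1.39; adjusted p = 0.0343). PKIA, which encodes an inhibitor of the kinase's catalytic subunit, had 15 and 0 UMIs against 121 and 1282, a log2 fold change of -6.59 (SE 1.47; adjusted p = 0.0461). Both genes were also counted in muscle fibre-gated nuclei, which only the subcutaneous libraries held. ADCY2 stood at 164 and 136 CPM in those of the subcutaneous libraries and PKIA at 333 and 352, and in muscle fibre-gated nuclei lay 27 and 417 ADCY2 and 55 and 1083 PKIA UMIs. Without those nuclei the log2 fold changes were -4.87 (SE 1.11) for ADCY2 and -4.97 (SE 1.03) for PKIA. Neither passed (edgeR adjusted p = 0.101 and 0.0760), and no gene did in that setting. That setting kept 705 ungated nuclei that lay in muscle fibre-like clusters. Muscle fibre genes made up a median of 5.75% and 9.54% of UMIs in ungated subcutaneous nuclei, against 0 and 0 in ungated intramuscular ones. In these values depot and muscle nuclei therefore cannot be told apart. The part of muscle nuclei in the differences was not tested further. Neither gene passed without intramuscular 1 (adjusted p = 0.0637 each), and ADCY2 also failed without subcutaneous 2 (0.125). The gene table lists overlapping genes for both, LOC132343253 for ADCY2 and LOC132342204 for PKIA.

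AKAP4, a gene best known from sperm, had 108 and 9 UMIs in the intramuscular libraries and 3 and 0 in the subcutaneous ones, a log2 fold change of 5.41 (SE 1.16; adjusted p = 0.0393). In adipocyte-gated nuclei it was at 22.4 and 96.6 CPM in the intramuscular libraries, with no UMI in the subcutaneous ones. In subcutaneous 2 these were 30 nuclei with 40342 UMIs in all, so a level like that of intramuscular 1 could have gone unseen there. In progenitor-gated nuclei it was at 114 in intramuscular 1, against 8.09 in subcutaneous 1 and 0 in subcutaneous 2, a log2 fold change of 4.17 (SE 1.04; adjusted p = 0.0293) with 1 library against 2. Without muscle fibre-gated nuclei, where no gene passed, the log2 fold change was 4.98 (SE 1.00; adjusted p = 0.0712). The whole-library call was also lost in nuclei with at least 500 genes (adjusted p = 0.0540) and without subcutaneous 2 (0.346). The progenitor call was lost in nuclei with at least 500 genes (adjusted p = 0.287), under a stricter gate (0.206) and with DESeq2 size factors (0.248).

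For most of the abundant list genes of adipocyte-gated nuclei the depots overlapped. The share of all genes whose depots overlapped was not computed. PDE3B, the phosphodiesterase through which insulin lowers cAMP in adipocytes, was at 584 and 805 CPM in the intramuscular libraries, against 586 and 644 in the subcutaneous ones. GNAI1, an inhibitory G protein subunit, was at 624 and 333 against 500.3 and 446, and ADCY6, another cyclase, at 258 and 215 against 283 and 174. Adipocyte-gated levels of the alpha receptor gene ADRA1A were 25.5 and 42.9 in the intramuscular and 41.0 and 74.4 in the subcutaneous libraries. MAOB, which degrades monoamines, was at 47.9 and 53.7 CPM in intramuscular and 57.4 and 24.8 in subcutaneous adipocyte-gated nuclei, and the inhibitory subunit GNAI3 at 109 and 96.6 against 77.9 and 198. The kinase anchor genes AKAP9 and AKAP13 were at 814 and 1267 and at 183 and 1213 CPM in the intramuscular libraries, against 1144 and 942 and 279 and 694 in the subcutaneous ones. The kinase subunit gene PRKAR1A had 127 and 183 CPM in the intramuscular libraries, above the 53.3 and 0 in the subcutaneous ones, but it did not pass the threshold (log2 fold change 2.09, SE 0.87, adjusted p = 1.00 with edgeR). GUCY1A1, a subunit of the nitric oxide receptor, ran the other way at 80.9 and 42.9 against 168 and 149 and did not pass either (log2 fold change -1.16, SE 0.69, adjusted p = 1.00 with edgeR). PDE5A, which degrades cyclic GMP, was at 138 and 0 against 135 and 0 CPM. The levels of 0 for PRKAR1A and PDE5A came from intramuscular 2 or subcutaneous 2, with 46 and 30 adipocyte-gated nuclei, so they are no sign of absence. UCP1, the thermogenic target of this pathway in brown fat, had 0 UMIs in all 4 libraries.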

How the data were processed

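Each deposited matrix gives raw counts of UMIs by gene and barcode; per the file headers, the authors ran Cell Ranger 6.0.1. Build ARS-UCD1.2 is named in the submitters' processing notes. Annotation release and intron counting: not given in the sources used here. Nuclei were isolated by Dounce homogenisation, per the labels. Of the 21861 features, 4251 carry no symbol.

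Nuclei with at least 200 genes and under 10% mitochondrial UMIs were kept. A nucleus was gated to the type whose markers exceeded their limit most (0.5% of UMIs for adipocyte, 1.0% for progenitor, 12% for muscle fibre and 0.4% for other types), with at least 3 marker UMIs from 2 markers. These limits were set after marker shares had been seen, and the members, lists and tests were chosen with earlier results of these data known. Nuclei within a factor of 1.25 of the adipocyte limit count as near it. Doublets were kept, with no caller run. Leiden clusters came from scanpy 1.11.5 and igraph 0.11.9 (2000 variable genes, 30 components, 15 neighbours, resolution 1.0); all 12 were named from at least 3 markers among their 100 leading genes.

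Counts were summed per library and gate with at least 10 nuclei and given as CPM (per 1000000 UMIs) with exact Poisson intervals (scipy 1.17.1); shares have Clopper-Pearson intervals, and a count of 0 was read as allowing 3 counts. Depots were compared with edgeR 4.0.16 in R 4.3.3 (filterByExpr, TMM, threshold 0.05), tested on simulated data, where it missed part of the large changes put in, most often in progenitor-gated sums, with DESeq2 1.42.0 as an alternative. Other alternatives were DESeq2 size factors, no count filter, the animal as a block, nuclei with at least 500 genes, limits raised by a factor of 2, clusters in place of gates and leaving out each library. The SE is the log2 fold change over the square root of the F statistic. The p-values measure the spread between libraries. The numbers pair the libraries, since per the titles they name the same animal. Named are the members, the 2 most abundant adipocyte-gated genes of each of 9 lists, any list gene past the threshold, and for SLC6A2 and ADRB3 the 5 non-marker genes most alike by Pearson r on log2(CPM + 10) over sums of at least 20 nuclei, among genes with at least 100 UMIs. Other genes, such as MAOA and TH, were chosen after their values were seen. Gene overlaps are from a RefSeq table of another build, ARS-UCD2.0, so no coordinates or sequences are given. Overlapping genes may share reads. Levels are not corrected for transcript length and are not compared between genes. A few items of the lists are not reported here.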

Additional observations from a re-analysis of the deposited data

How the results depend on the processing

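The whole-library count of 170 genes moved to 348 with the DESeq2 Wald test, to 444 with no filter on low counts and to 0 without muscle fibre-gated nuclei (a choice made after seeing the data), and ranged from 24 to 411 with a library left out; the pathway count of 4 became 0 without muscle fibre-gated nuclei and ranged from 0 to 6 (0 without intramuscular 1 and 1 without subcutaneous 2). In adipocyte-gated nuclei the count of 41 moved to 92 with no filter and to 15 with the stricter gate, and ranged from 31 to 359 with a library left out, while the pathway count of 0 reached 1 without intramuscular 1 (ADCY5) or without intramuscular 2 (NR4A1). In progenitor-gated nuclei the count of 104 moved to 0 with DESeq2 size factors (343 at an unadjusted edgeR p under 0.05), to 55 with DESeq2 and to 271 with clusters. The pathway count of 1 there became 0 with DESeq2 size factors, DESeq2 (AKAP4 had no adjusted p), at least 500 genes and the stricter gate, and 2 with clusters. The causes were not tested. With the animal as a block, the whole-library count was 199 and the adipocyte-gated count 57, and the pathway counts stayed at 4 and 0. In progenitor-gated nuclei neither the block nor leaving out a library was run, because only 1 intramuscular library had at least 10 such nuclei. The adipocyte gate was on top in 4 of 9 pairs with the stricter gate, and in 5 to 10 with a library left out. The 10 is without intramuscular 2, which gave no pair, so that value was fixed in advance. Of 42 alternatives that left out no library by design, for 14 adipocyte-gated member levels, 37 moved the level by less than the SD between libraries and 5 by more. Among these 42, the subcutaneous levels under the stricter gate rest on subcutaneous 1 alone, since only 9 nuclei of subcutaneous 2 passed it. With 2 libraries, leaving out either cannot move a mean by more than that SD, so the 28 values with a library left out are no sign of stability. With an intramuscular library left out, the intramuscular level ranged from 0.622 to 75.2 CPM for ADRB3 and from 147 to 1213 CPM for ADCY5. The single genes tested kept their sign, but the balance of called genes did not, with 24 higher and 0 lower over whole libraries without intramuscular 1, against 6 and 164 with all libraries. Depth limits ADRB1, ADRB3 and NPR3, and all values of intramuscular 2 and of adipocyte-gated nuclei in subcutaneous 2.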

Other observations

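MAOA, which breaks down noradrenaline inside cells, was seen in several gates. It had 108 and 3 UMIs in the intramuscular libraries and 51 and 28 in the subcutaneous ones. In intramuscular 1 its level was 82.2 CPM in blood endothelial-gated nuclei (53.7 to 120.4), against 23.6 in adipocyte-gated nuclei (16.7 to 32.4). In subcutaneous 1 it was 147 in pericyte/smooth muscle-gated nuclei (63.4 to 289) and 80.9 in progenitor-gated nuclei (49.4 to 125), against 28.7 in adipocyte-gated nuclei (11.5 to 59.1).

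TH UMIs in subcutaneous 1 were densest in mast cell-gated nuclei, of which there were 3, and 12 of its 29 UMIs lay in 2 of them. The mast gate used KIT, CPA3, MS4A2 and HDC and was passed in no other library. Another 8 TH UMIs lay in 2 blood endothelial-gated nuclei (32.7 CPM over that gate, 14.1 to 64.5), 5 in ungated, 2 in adipocyte-gated and 2 in muscle fibre-gated nuclei. Barcodes left out by the filters held 0 SLC6A2, 0 ADRB1 and 0 ADRB3 UMIs in all 4 libraries.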
